A study of Homo sapiens with 8 samples.

Results

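A set of 10 genes was followed in Hs578T cells: the D-type cyclin genes CCND1 and CCND3, the kinase gene CDK6, the INK4 inhibitor genes CDKN2A, CDKN2B, CDKN2C and CDKN2D, and the CIP/KIP inhibitor genes CDKN1A, CDKN1B and CDKN1C. They were chosen by symbol, as genes that set the pace of G1, with earlier results of these data known. All 10 were among the 21077 genes of the deposited table, and 9 were among the 15570 genes with enough signal to be tested. Hs578T is an established estrogen receptor-negative breast cancer cell line with mesenchymal features. The study asked how hyperglycemia-like culture acts on breast cancer cells, and here RNA-Seq compared 4 libraries from cells kept at 5 mM glucose with 4 libraries from cells kept at 25 mM glucose. Both groups were the same unmodified line, in flasks, and RNA was taken after 48 hours. For its high glucose experiments the study describes medium without serum and a period in low glucose beforehand, a state that both groups then share. Nothing in the labels ties the replicates to separate cultures. The p values therefore measure only the spread between these libraries, which may be technical.

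A cell in G1 commits to copying its DNA when cyclin-dependent kinases inactivate the retinoblastoma protein, which otherwise holds back the E2F transcription factors. D-type cyclins are made in response to growth signals and switch on the kinases CDK4 and CDK6, and cyclin E with CDK2 carries the phosphorylation further. INK4 proteins bind CDK4 and CDK6 and keep D-type cyclins off, whereas CIP/KIP proteins bind cyclin-CDK complexes, above all those of CDK2. Many breast cancers depend on cyclin D1, and drugs that inhibit CDK4 and CDK6 are used in the clinic.

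Expression is given as normalized signal in CPM, as mean ± SD over 4 libraries. CPM was taken as read counts scaled to an adjusted size of each library, and library totals were larger in low than in high glucose. Fold changes are log2 differences of CPM + 1, high minus low glucose, with their SE, and a gene was called at a Benjamini-Hochberg adjusted p under 0.05 in a limma fit over all tested genes. The libraries held 10244897 to 11956682 estimated counts each, so that 1 count was worth 0.0867 to 0.118 CPM. Most of the transcriptome moved between the groups: 72.9% of tested genes were called, 35.7% higher and 37.2% lower in high glucose, and 66.7% had groups that did not overlap. Against that background, 7 of the 9 tested genes were called, with 4 higher (CCND1, CCND3, CDK6 and CDKN2C) and 3 lower (CDKN2B, CDKN2D and CDKN1C), and the same 7 had groups that did not overlap. CDKN1C was tested through its low glucose libraries alone. A share of 7 in 9 is near the share over all genes. The median log2 fold change of the 9 genes was -0.02, beside -0.00031 over all tested genes. In RNA from whole cultures, a change in the RNA of each cell and a change in which cells made up the culture cannot be told apart. The labelled cell type was checked on its markers. ESR1 and PGR, the estrogen and progesterone receptor genes, were at or below 0.181 CPM on average in both groups. The luminal markers GATA3 and FOXA1 were present. GATA3 was at 19.4 to 24.2 CPM in low and 18.9 to 21.8 CPM in high glucose, and FOXA1 at 2.81 to 3.79 and 2.86 to 3.51 CPM. Of the epithelial markers, EPCAM was listed at 0 and CDH1 was at or below 0.902 CPM in each library. KRT18 was at 221 to 242 CPM in low and 94.4 to 108 CPM in high glucose, and KRT8 at 47.9 to 52.8 and 15.3 to 19.9 CPM. The summed signal of VIM, FN1, CDH2 and ZEB1 was 50200 to 54100 CPM in low and 28700 to 29800 CPM in high glucose.

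**Figure D1:**
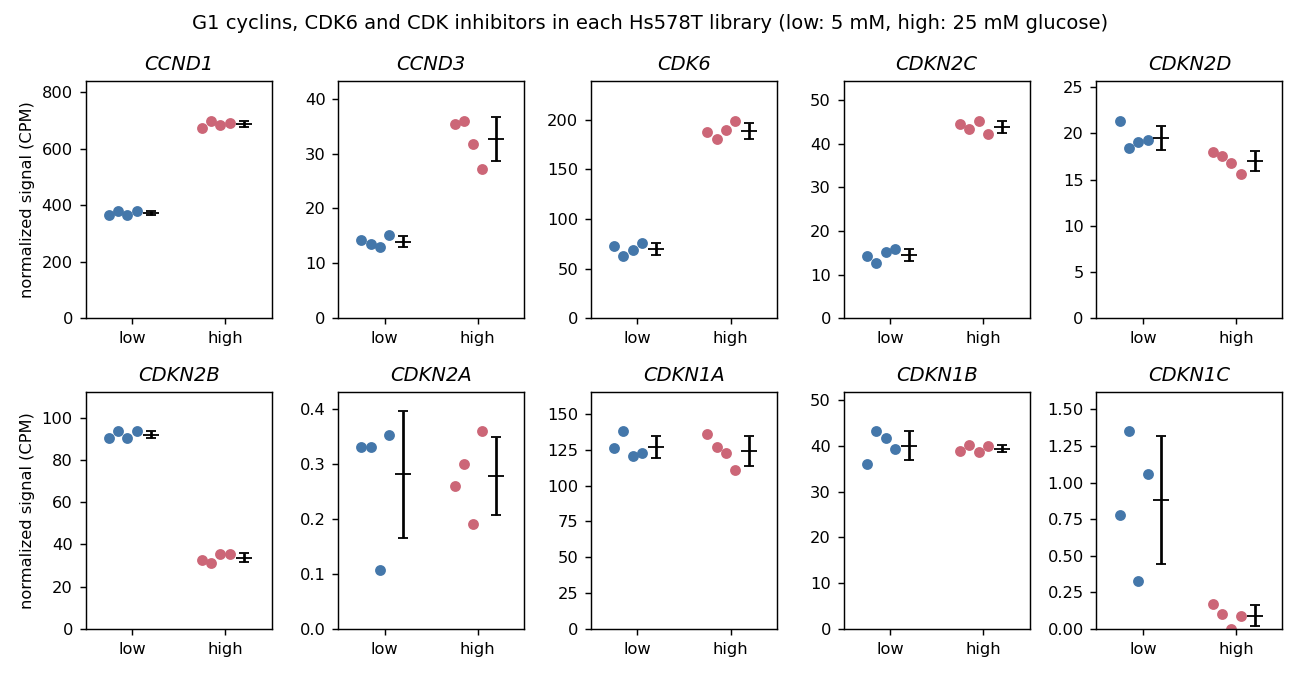
Normalized signal in CPM (y axis, from 0) of each of the 10 genes in the 4 low glucose (5 mM) and 4 high glucose (25 mM) libraries, 1 point per library, with bars for mean ± SD. CCND1, CCND3, CDK6 and CDKN2C lie higher in each high glucose library, CDKN2B lies lower, and the points of CDKN1A and CDKN1B overlap between the groups.

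The D-type cyclin genes CCND1 and CCND3 and the kinase gene CDK6 were all higher in high glucose. CCND1 encodes cyclin D1 and lies on chromosome 11 (ENSG00000110092.3, 69641156 to 69654474, GRCh38.p14). Its signal was 367, 381, 364 and 379 CPM in the low glucose libraries and 673, 700, 685 and 691 CPM in the high glucose libraries. The lowest high glucose library lay well above the highest low glucose library. Mean signal went from 373 ± 8.61 to 687 ± 11.2 CPM (n = 4 each), 1.84 times the low glucose level (log2 fold change 0.88 ± 0.0319, 95% confidence interval 0.81 to 0.95, adjusted p = 1.74e-12). The estimated counts of CCND1 were not whole in any of the 8 libraries, so some of its reads may have been split with overlapping or similar features. The same holds for other genes named below, among them CDK4, CCNE2, RBL2 and RBBP4. Those of E2F5, LIN37 and CCNA2 were whole in only 1 library.

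CCND3, on chromosome 6 (ENSG00000112576.12, 41934933 to 42050035), encodes cyclin D3, a partner of the same kinases. It gave 14.3, 13.5, 12.9 and 15.1 CPM in low glucose and 35.3, 36, 31.8 and 27.2 CPM in high glucose. The groups did not overlap, and the high glucose libraries spread more widely than the low glucose ones. The mean rose from 13.9 ± 0.955 to 32.6 ± 4.02 CPM, 2.34 times (log2 fold change 1.16 ± 0.0921, 0.97 to 1.36, adjusted p = 1.49e-08). The third D-type cyclin gene, CCND2, was scarce and lay lower in high glucose. It gave 0.341, 0.814, 0.328 and 0.354 CPM in low and 0.178, 0.2, 0.0983 and 0 CPM in high glucose. These came from 16.35 estimated counts in all against 5.08, and CCND2 was not tested.

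CDK6, on chromosome 7 (ENSG00000105810.9, 92604921 to 92836573), encodes the kinase that these cyclins activate. Its signal was 73.2, 62.4, 68.3 and 75.3 CPM in low glucose and 187, 180, 189 and 199 CPM in high glucose. Each high glucose library was far above each low glucose library. Mean CDK6 signal was 69.8 ± 5.75 CPM against 189 ± 7.93 CPM, a ratio of 2.70 (log2 fold change 1.43 ± 0.0557, 1.31 to 1.54, adjusted p = 3.88e-12). CDK4, the sister kinase with the same cyclin partners, went the other way: 206, 211, 206 and 202 CPM in low glucose and 166, 163, 148 and 147 CPM in high glucose. That is 206 ± 3.51 to 156 ± 9.83 CPM (log2 fold change -0.40 ± 0.0443, adjusted p = 6.98e-07).

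The INK4 genes, whose proteins block CDK4 and CDK6, split in both directions. CDKN2C, the gene of p18-INK4c on chromosome 1 (ENSG00000123080.11, 50960745 to 50974634), had the largest rise of the 9 tested genes. It stood at 14.2, 12.6, 15.1 and 15.9 CPM in low glucose and at 44.4, 43.3, 45.3 and 42.2 CPM in high glucose. Libraries within a group lay close together, and the groups were far apart. The mean rose from 14.4 ± 1.42 to 43.8 ± 1.34 CPM, 3.03 times (log2 fold change 1.54 ± 0.0762, 1.38 to 1.70, adjusted p = 5.55e-11).

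CDKN2B, the gene of p15-INK4b on chromosome 9 (ENSG00000147883.11, 22002903 to 22009313), had the largest fall on the log2(CPM + 1) scale, although the ratio of the scarce CDKN1C was smaller. p15-INK4b is best known as an inhibitor that TGF-beta induces. The 4 low glucose libraries held 90.5, 93.5, 90.4 and 93.6 CPM and the 4 high glucose libraries 32.7, 31.4, 35.3 and 35.6 CPM. No library came near those of the other group. The mean fell from 92.0 ± 1.81 to 33.7 ± 2.05 CPM, to 0.367 of the low glucose level (log2 fold change -1.42 ± 0.0529, -1.54 to -1.31, adjusted p = 2.30e-12).

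CDKN2D, the gene of p19-INK4d on chromosome 19 (ENSG00000129355.6, 10566460 to 10568979), moved little. Its values were 21.4, 18.4, 19.1 and 19.3 CPM in low glucose and 18, 17.6, 16.8 and 15.6 CPM in high glucose. The groups did not overlap, but low glucose replicate 2 and high glucose replicate 1 nearly met. The mean fell from 19.6 ± 1.26 to 17.0 ± 1.08 CPM (ratio 0.870, log2 fold change -0.19 ± 0.0810, -0.36 to -0.02, adjusted p = 0.0457). This call did not hold when 6 of the 8 libraries were left out in turn, and the sign turned when libraries were rescaled to equal totals (0.04, adjusted p = 0.647).

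CDKN2A, next to CDKN2B on chromosome 9 (ENSG00000147889.17, 21967752 to 21995324), encodes p16-INK4a and, in another frame, ARF. It was close to absent from these libraries. The values were 0.332, 0.331, 0.108 and 0.354 CPM in low glucose and 0.26, 0.301, 0.191 and 0.36 CPM in high glucose, made of 1 to 4 estimated counts per library. These are at about the 0.26 to 0.354 CPM that 3 counts are worth, the groups overlapped, and the gene stayed under the limit of 0.5 CPM in 2 libraries, so no fold change is given.

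The CIP/KIP genes were level or nearly silent. CDKN1A, on chromosome 6 (ENSG00000124762.13, 36676463 to 36687332), encodes p21, an inhibitor that is induced after DNA damage. It gave 126, 138, 121 and 123 CPM in low glucose and 136, 127, 123 and 111 CPM in high glucose. The groups overlapped almost fully. The means were 127 ± 7.72 and 124 ± 10.4 CPM (log2 fold change -0.03 ± 0.0591, -0.16 to 0.09, adjusted p = 0.616).

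CDKN1B, on chromosome 12 (ENSG00000111276.11, 12717368 to 12722369), encodes p27, which accumulates in resting cells. Its signal was 36.1, 43.2, 41.7 and 39.3 CPM in low glucose and 38.9, 40.1, 38.6 and 40 CPM in high glucose. All 4 high glucose libraries lay inside the low glucose range. The means were 40.1 ± 3.10 and 39.4 ± 0.765 CPM (log2 fold change -0.02 ± 0.0622, -0.15 to 0.11, adjusted p = 0.772). With libraries rescaled to equal totals, both genes were called higher, CDKN1A at 0.21 (adjusted p = 0.00388) and CDKN1B at 0.22 (adjusted p = 0.00683), on a scale that moved the fold change of a typical gene by 0.23.

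CDKN1C, on chromosome 11 (ENSG00000129757.13, 2883218 to 2885775), encodes p57, an imprinted inhibitor. It was found at 0.775, 1.35, 0.325 and 1.06 CPM in low glucose and at 0.173, 0.1, 0 and 0.0901 CPM in high glucose, from 31 estimated counts in all against 4. Each low glucose library was above each high glucose library, at a level of few reads. The gene passed the limit for testing through its low glucose libraries alone, 3 of 4, so that a difference was built into its being tested. The ratio of high to low was 0.107 (95% counting interval 0.0274 to 0.302, exact binomial, for counting error only), and the fitted log2 fold change of -0.75 ± 0.179 (-1.14 to -0.37, adjusted p = 0.00142) became -2.31 with a pseudocount of 0.1 and -0.20 with a pseudocount of 5.

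**Figure D2:**
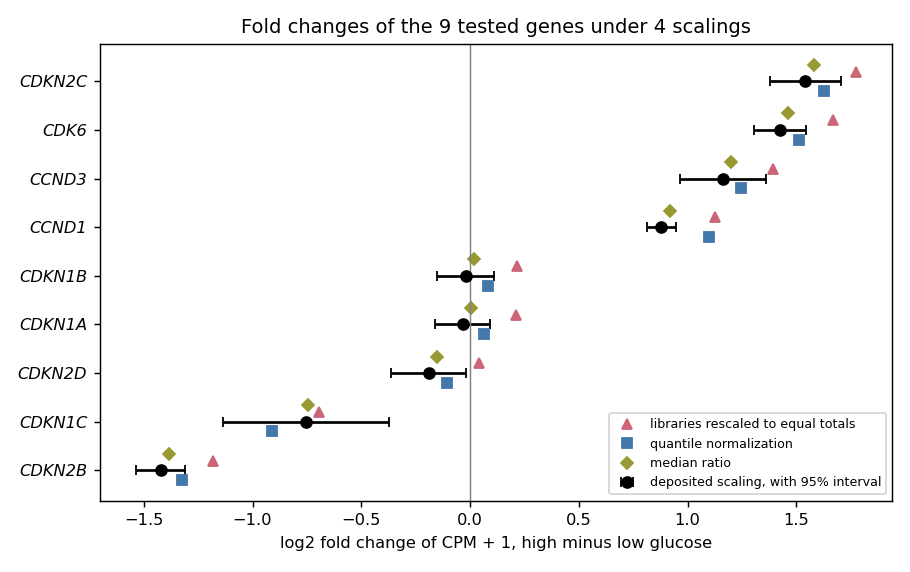
Log2 fold change of CPM + 1 (x axis, high minus low glucose) of the 9 tested genes, with 95% confidence intervals for the deposited scaling (black) and the values after 3 other scalings of the libraries (colored). CDKN2C, CDK6, CCND3 and CCND1 lie to the right of 0 and CDKN2B and CDKN1C to the left under each scaling, while CDKN2D, CDKN1A and CDKN1B change side.

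Because CPM grows with transcript length, levels were compared between genes per kilobase of the MANE Select transcript. In low glucose, CCND1 was the most abundant at 88.0 ± 2.03 CPM per kb, followed by CDKN1A at 59.9 ± 3.65 and CDKN2B at 23.9 ± 0.470. CDKN1B (16.6 ± 1.29), CDKN2C (14.5 ± 1.43) and CDKN2D (13.7 ± 0.887) came next, with libraries that overlapped between neighbors in this order, then CCND3 (6.88 ± 0.472) and CDK6 (5.98 ± 0.493), whose libraries also overlapped. CDKN1C and CDKN2A were last at 0.495 and 0.288 CPM per kb. In high glucose the order changed in the middle. CCND1 (162 ± 2.63) and CDKN1A (58.6 ± 4.92) stayed on top, CDKN2C rose to the third place at 44 ± 1.35, CDKN1B (16.3 ± 0.317), CDK6 (16.2 ± 0.680) and CCND3 (16.1 ± 1.98) lay together, and CDKN2D (11.9 ± 0.760) and CDKN2B (8.76 ± 0.532) lay below them. Among the INK4 genes, the most abundant per kilobase was thus CDKN2B in low glucose and CDKN2C in high glucose.

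Differences between a pair of genes within a library do not depend on how the libraries were scaled, apart from the pseudocount, and 3 such pairs were tested over libraries with a 2-sided exact permutation test, whose smallest possible p for 4 against 4 is 0.0286. CDK6 minus CDK4, the pair of kinases that share D-type cyclins, was -1.48, -1.74, -1.58 and -1.41 log2 units in low glucose and 0.17, 0.15, 0.35 and 0.43 in high glucose. The sign differed between the groups in each library, with CDK4 above CDK6 in CPM in low glucose and below it in high glucose. CPM was not divided by transcript length here, so the sign does not say which transcript was more abundant. The mean went from -1.55 ± 0.142 to 0.27 ± 0.140, a difference of 1.83 (exact p = 0.0286, adjusted over the 3 pairs 0.0857). CCND3 minus CCND1 was -4.65 ± 0.0825 in low and -4.37 ± 0.183 in high glucose, and 1 high glucose library, at -4.62, lay inside the low glucose range (difference 0.28, exact p = 0.0857, adjusted 0.129). CDKN1B minus CDKN1A was -1.64 ± 0.108 and -1.63 ± 0.136 (difference 0.01, exact p = 0.886, adjusted 0.886). None of the 3 pairs passed after adjustment. The p of CDK6 minus CDK4 was the smallest that the design can give. It could pass only if another pair also reached that p, so its adjusted p says nothing of the size of the difference.

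**Figure D3:**
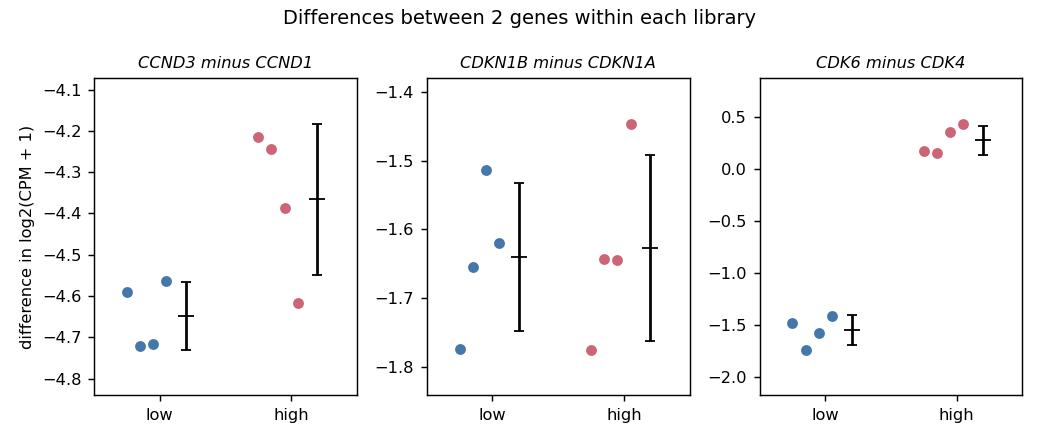
Difference in log2(CPM + 1) between a pair of genes within each library (y axis, not starting at 0), 1 point per library, for 4 low and 4 high glucose libraries with bars for mean ± SD. CDK6 minus CDK4 runs from -1.74 to -1.41 in low and from 0.15 to 0.43 in high glucose, and the other pairs overlap between the groups.

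The other genes of the G1 machinery were taken from lists chosen by function. Each list count below is to be read beside the share over all tested genes. Of all tested genes, 72.9% were called, 35.7% higher and 37.2% lower. Of 10 tested partner cyclins and kinases, 5 were higher, 4 lower and 1 was not called, with a median log2 fold change of 0.10. The largest changes belonged to the cyclin E arm. CDK2, the kinase of cyclins E and A, gave 12.8, 14.5, 12.7 and 13.2 CPM in low glucose and 45.5, 48.9, 43.3 and 50.4 CPM in high glucose (13.3 ± 0.829 to 47.0 ± 3.22, log2 fold change 1.75 ± 0.0735, adjusted p = 8.95e-12). CCNE2, a cyclin E gene, rose from 2.19 ± 0.678 to 17.7 ± 1.65 CPM (2.58), and CDC25A, the gene of a phosphatase that activates CDK2, from 3 ± 0.479 to 16.2 ± 2.24 CPM (2.10). Libraries of the groups did not overlap for these 3 genes. The genes of the CDK-activating kinase complex, which were not among the 3 of the list with the smallest p, were all called lower. They were CDK7 at 53.8 against 35.5 CPM (-0.59), CCNH at 48.9 against 43.5 CPM (-0.16) and MNAT1 at 28.2 against 23.2 CPM (-0.27). With equal totals, which moved a typical gene by 0.23, only 2 genes of the list were called lower. The 3 genes of the complex thus did not all stay called.

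Downstream, RB1, the gene of the retinoblastoma protein, was 89.0 ± 3.96 and 83.9 ± 2.48 CPM and was not called (-0.08, adjusted p = 0.114). Its relatives RBL1 (11.6 ± 0.297 to 25.6 ± 2.57 CPM, 1.07) and RBL2 (32.8 ± 1.93 to 39.8 ± 2.64 CPM, 0.27) rose, which makes 2 higher, 0 lower and 1 not called among 3 pocket protein genes. Of 10 E2F and DP factors, 6 were higher, 3 lower and 1 was not called (median 0.33). The repressor E2F7 fell from 315 ± 12.9 to 162 ± 4.53 CPM (-0.96) and E2F5 from 37.6 ± 1.46 to 13.7 ± 1.40 CPM (-1.40), while TFDP1, a dimer partner of several but not all E2Fs, rose from 31.0 ± 2 to 80.1 ± 1.56 CPM (1.34). Of the 6 higher genes, 2 had passed the limit for testing through their high glucose libraries alone, so that a difference was built into their being tested. These were E2F2 and E2F8, picked out after their values were seen, at or under 3 counts in each low glucose library and at 2.41 to 3.42 and 3.41 to 6.93 CPM in high glucose. Of 8 genes in a list for the DREAM and MuvB complexes, 4 were higher, 2 lower and 2 were not called (median 0.28). The list also held DYRK1A, MYBL2 and FOXM1, so it is not a list of repressor components alone. LIN37 fell from 49.0 ± 2.58 to 12.5 ± 1.25 CPM (-1.89), RBBP4 rose from 81.7 ± 2.35 to 155 ± 4.34 CPM (0.92), and LIN54 rose from 23.9 ± 1.83 to 44.6 ± 1.02 CPM (0.87).

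Protein levels of cyclin D1, p27 and p21 are set largely by ubiquitin ligases, so the genes of these ligases were counted too. Of 15, 7 were higher, 5 lower and 3 were not called (median 0.11). SKP2, the receptor that marks p27 for destruction, gave 11.1, 14.3, 13.4 and 13.7 CPM in low glucose and 35.2, 31.5, 34.2 and 35.2 CPM in high glucose. The groups were far apart, at 13.1 ± 1.41 and 34.0 ± 1.76 CPM (1.31 ± 0.0852, adjusted p = 1.34e-09). DTL, which directs p21 to the CUL4 ligase during replication, rose from 13.2 ± 0.297 to 30.0 ± 2.96 CPM (1.12), and CDC34, a ubiquitin-conjugating enzyme, fell from 74.5 ± 2.02 to 42.7 ± 4.09 CPM (-0.79).

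Among 15 known transcriptional regulators of these genes, 6 were higher, 7 lower and 2 were not called (median -0.11, and 0.13 with equal totals). MYC, which represses CDKN1A and CDKN2B, was 292, 312, 297 and 288 CPM in low glucose and 50.1, 54.2, 48.7 and 53 CPM in high glucose. No library came near those of the other group, and the mean fell from 297 ± 10.4 to 51.5 ± 2.56 CPM (-2.51 ± 0.0448, adjusted p = 1.40e-15). CTNNB1, the gene of beta-catenin, which acts on CCND1, rose from 185 ± 1.82 to 398 ± 9.89 CPM (1.1).

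Genes of the S, G2 and M phases were counted beside the G1 genes. Of 14, 13 were higher and 1, CDC20, was lower (median 0.88). CDC20 was not called under the other scalings, which left 13 higher and 0 lower. MKI67, the gene of the Ki-67 antigen, rose from 18.9 ± 0.474 to 101 ± 6.78 CPM (2.36), RRM2, a ribonucleotide reductase subunit, from 44 ± 1.16 to 151 ± 7.51 CPM (1.75), and CCNA2, the gene of cyclin A2, from 7.81 ± 0.952 to 32.2 ± 1.49 CPM (1.92). Rises of the G1 genes thus stood beside rises of genes of later phases, and the part that the share of cycling cells had in them was not tested. The study measured proliferation by BrdU incorporation, which is not an RNA measure, in Hs578T and other lines and reports no increase in high glucose. The list of S, G2 and M phase genes includes all genes of the study's RNA proliferation score. In other samples, the study reports that score as not significantly different in xenografts and lower in tumors of patients with diabetes. Markers of other cell types were also summed. The endothelial list, whose defining marker CDH5 was listed at 0 in each library, was 2.12 to 2.77 CPM in low and 7.11 to 8.58 CPM in high glucose (3 of 4 genes called higher, of which VWF and KDR were tested through their high glucose libraries alone), the leukocyte list, of which 2 of 4 genes were listed and LYZ was at 0, was 0 to 0.221 and 0.382 to 1.08 CPM, and the adipocyte list, also with 2 of 4 listed, reached at most 0.477 CPM. The epithelial list was 274 to 291 CPM in low and 110 to 128 CPM in high glucose, and the luminal list 23.2 to 27.2 and 22.1 to 25.4 CPM.

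**Figure D4:**
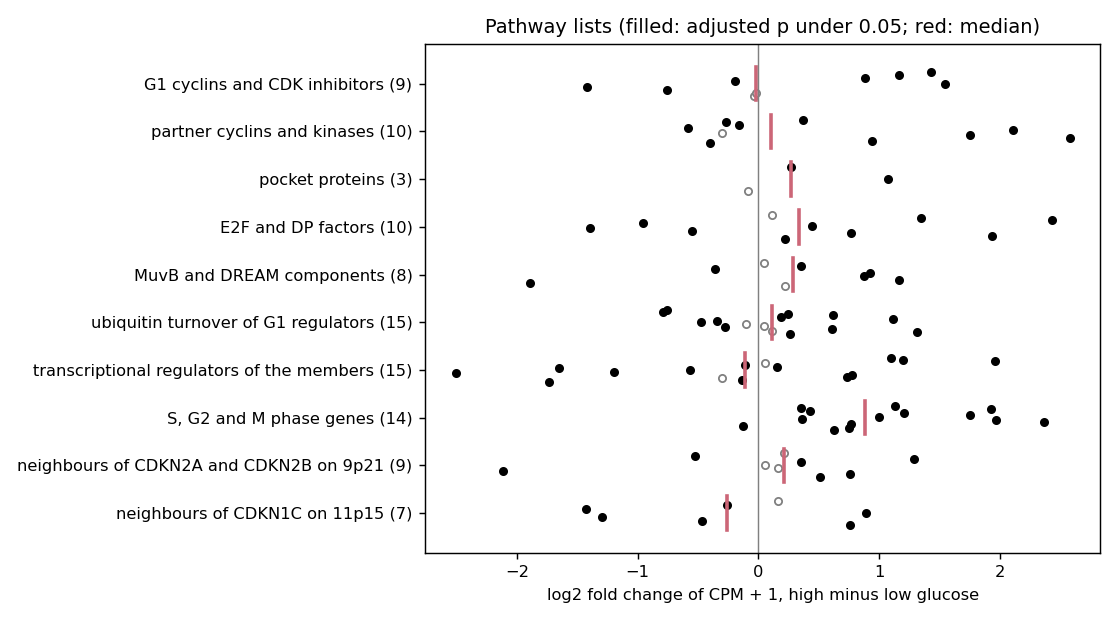
Log2 fold change of CPM + 1 (x axis, high minus low glucose) of each tested gene of the 10 G1 genes and of 9 lists (y axis, number tested in parentheses), filled where the adjusted p was under 0.05 and open otherwise, with the list's median as a red line. The medians run from -0.26 for the 11p15 neighbors to 0.88 for the S, G2 and M phase genes, and the G1 genes lie on both sides of 0.

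CDKN2A and CDKN2B are neighbors on 9p21, and 11 genes of that region were examined. Of 9 that were tested, 4 were higher, 2 lower and 3 were not called (median 0.21). DMRTA1, to one side, fell from 17.0 ± 2.58 to 3.17 ± 0.565 CPM (-2.11), whereas ELAVL2 rose from 3.80 ± 0.586 to 10.7 ± 0.830 CPM (1.29) and MTAP, the methylthioadenosine phosphorylase gene on the far side of CDKN2A, from 19.6 ± 1.77 to 28.3 ± 2.62 CPM (0.51). CDKN2B-AS1, the antisense RNA also called ANRIL, gave 2.21, 2.82, 2.41 and 1.77 CPM in low glucose and 5.86, 4.76, 4.05 and 3.78 CPM in high glucose. It was higher in each high glucose library while CDKN2B was lower (2.30 ± 0.436 to 4.61 ± 0.926 CPM, log2 fold change 0.76 ± 0.154, adjusted p = 0.000374). The study names a stranded library kit for its tumor RNA-Seq. For these libraries, the sources used here do not give whether the counting used strand. Without it, reads of an antisense gene and of its partner cannot be told apart. CDKN2A-DT was listed at 0 in all 8 libraries. Around CDKN1C, on 11p15, 2 of 7 tested genes were higher, 4 lower and 1 was not called (median -0.26), with NAP1L4 at 110 ± 3.09 and 206 ± 7.88 CPM (0.89), TSSC4 at 70.6 ± 5.08 and 26.3 ± 6.55 CPM (-1.42) and SLC22A18 at 24.9 ± 2.92 and 9.60 ± 1.84 CPM (-1.30). KCNQ1, which overlaps the imprinting center of this domain, was listed at 0 in all 8 libraries.

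RefSeq promoter windows of 300 bases (250 before and 50 after a start site, GRCh38.p14) were at hand for 8 of the 10 genes, 14 windows in all. CCND1 and CDKN1C had none. They were searched on both strands for the E2F sites TTTCGCGC, TTTGGCGC and TTTCCCGC, the E-box CACGTG that MYC binds, the AP-1 sites TGACTCA and TGAGTCA, the CRE TGACGTCA, the CHR element TTTGAA and the GC box GGGCGG that SP1 binds. Of all 35116 RefSeq promoter windows, 2.74% held such an E2F site, 7.26% the E-box, 4.95% an AP-1 site, 1.85% the CRE, 15.2% the CHR and 45% a GC box. No window of the 8 genes held these letters of the E2F, AP-1, CRE or CHR elements. The 250 bases before the outermost start are shown for the genes with the largest rises and the largest fall on the log2(CPM + 1) scale, CDKN2C (chr1:50960495-50960744, plus strand), CDK6 (chr7:92836574-92836823, minus strand) and CDKN2B (chr9:22009306-22009555, minus strand), written 5′ to 3′ along the gene, with capitals for an E-box or for a GC box on either strand.
CDKN2C: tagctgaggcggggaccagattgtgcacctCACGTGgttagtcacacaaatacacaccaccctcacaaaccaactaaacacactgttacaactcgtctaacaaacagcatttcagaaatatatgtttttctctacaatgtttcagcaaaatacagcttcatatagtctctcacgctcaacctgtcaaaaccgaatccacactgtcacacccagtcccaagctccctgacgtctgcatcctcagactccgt
CDK6: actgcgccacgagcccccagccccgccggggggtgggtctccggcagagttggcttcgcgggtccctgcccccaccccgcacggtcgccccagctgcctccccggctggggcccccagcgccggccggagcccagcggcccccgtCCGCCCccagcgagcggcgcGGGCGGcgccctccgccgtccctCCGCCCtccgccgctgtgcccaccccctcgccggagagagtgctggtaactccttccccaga
CDKN2B: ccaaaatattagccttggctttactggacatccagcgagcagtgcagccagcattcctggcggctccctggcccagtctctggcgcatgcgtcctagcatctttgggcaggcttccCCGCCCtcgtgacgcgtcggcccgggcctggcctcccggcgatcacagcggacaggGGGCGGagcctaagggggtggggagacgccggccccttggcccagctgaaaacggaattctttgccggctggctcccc
The CDKN2C stretch held 1 E-box, 220 bases before the start, and no GC box. A window at another CDKN2C start, chr1:50969995-50970294, also held an E-box, at -69, and the remaining window, chr1:50968456-50968755, held 6 GC boxes. The CDK6 stretch held 3 GC boxes, at -105, -85 and -62, and an E-box followed its start at 30. The CDKN2B stretch held 2 GC boxes, at -134 and -78, and no E-box. Of the genes that were not called, CDKN1A held 4 GC boxes and CDKN1B 1. Such matches describe the letters and say nothing of binding in these cells.

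Finally, the genes most like CDKN2C and CDKN2B, the genes with the largest rise and fall on the log2(CPM + 1) scale, were sought by Pearson correlation on that scale over the 8 libraries, among 11291 other genes with a mean of at least 5 CPM in a group. For CDKN2C these were MMP3 (0.985 to 9.52 CPM, r = 0.9988), AMOTL1 (119 to 195 CPM, r = 0.9987) and EDN1 (3.66 to 31.4 CPM, r = 0.9987). For CDKN2B they were ZNF277 (74.4 to 22.2 CPM, r = 0.9995), FAM129A (394 to 144 CPM, r = 0.9994) and HEY1 (161 to 9.40 CPM, r = 0.9993). As the 8 libraries fall into 2 separate groups, r mainly reports the step between them, and 557 genes for CDKN2C and 744 for CDKN2B had r over 0.99.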

How the data were processed

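The authors deposited 1 table of normalized signal for 8 RNA-Seq libraries (4 per group), with no unit beyond the word normalized. Per the submitters' processing notes, hg38 and edgeR were used. Column sums were 1205567 to 1229021 in low and 1017015 to 1036274 in high glucose. From these sums, the submitters' notes and the study's methods (CPM with TMM factors, written for other samples), the deposited signal was taken as CPM scaled by TMM. TMM takes most genes as unchanged, which puts the typical fold change near 0. The sources used here give no aligner, counter or strand setting for these libraries. For its tumor RNA-Seq, the study names a stranded library kit and the Tophat aligner, with another genome build. The counts behind the values were fractional, so no count model was used, and depth was estimated from the value of 1 count. No 2 libraries agreed within sampling noise (chi-square per gene of 1.60 to 5.72 within and 102 to 129 between groups).

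Tested genes had 0.5 CPM or more in 2 or more libraries. Under R 4.3.3, limma 3.58.1 was fitted to log2(CPM + 1) with a variance trend, moderated statistics, no covariates, 2-sided tests and Benjamini-Hochberg adjustment at 0.05. Within-library differences were tested by exact permutation over 70 arrangements. Dixon's ratio was used to find single libraries far from their group. The test was checked on simulated data. The 10 genes and the lists were chosen with earlier results of these data known, so no list is independent evidence. From each list, up to 3 called genes with the smallest p were named, and genes listed at 0 in all libraries, except that 1 result of the regulator list is not reported here. Positions and promoters came from RefSeq (GRCh38.p14), and lengths from MANE Select transcripts in GENCODE. Alternatives were other pseudocounts, no filter, 3 other scalings, no variance trend, a replicate block and leaving out each library.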

Additional observations from a re-analysis of the deposited data

Results flagged for a closer look

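In 5 of 78 groups of 4 libraries that were examined (the 10 G1 genes, the 3 within-library pairs and the 26 genes taken from the lists by smallest p, in each group), a single library lay so far from the other 3 that Dixon's ratio passed its 95% critical value of 0.829, which chance gives in about 5% of groups. Among the 10 G1 genes this was low glucose replicate 3 for CDKN2A, with 0.108 CPM beside 0.331 to 0.354 CPM, a gap of about 2 estimated counts. CDC25A was at 3.71 CPM in low glucose replicate 2 and at 2.71 to 2.88 CPM in the others. RBL2 was at 35.7 CPM in low glucose replicate 4, beside 31.7 to 32 CPM. CCNA2 was at 34.4 CPM in high glucose replicate 3, beside 31.3 to 31.8 CPM, and SLC22A18 at 12.3 CPM in high glucose replicate 2, beside 8.38 to 9.01 CPM. The 5 cases fell on 5 different libraries, and in 4 of them, all but CDKN2A, the far library still lay on its own side of the other group.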

How the results depend on the processing

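Between 6 and 8 of the 9 tested genes were called under the 16 alternatives, with 4 to 6 higher and 2 or 3 lower, and 6 or 7 when 1 library was left out (4 higher each time, 2 or 3 lower). CCND1 (0.87 to 1.12), CCND3 (0.98 to 1.39), CDK6 (1.37 to 1.67), CDKN2C (1.33 to 1.78) and CDKN2B (-1.45 to -1.18) kept their direction and their call under each alternative run, an exact permutation test with the smallest p the design allows, 0.0286, included. CDKN1C ranged from -2.31 to -0.20, which says nothing of its stability, since it was tested through its low glucose libraries alone. CDKN2D ranged from -0.22 to 0.04 (adjusted p 0.0284 to 0.647): it was not called with no filter (adjusted p = 0.0515), median ratio scaling (-0.15, adjusted p = 0.0994), quantile normalization (-0.11, adjusted p = 0.235), or without low glucose replicate 1, 3 or 4 or high glucose replicate 2, 3 or 4 (-0.21 to -0.15), and it turned to 0.0417 with equal totals.

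Equal totals moved the fold change of the typical gene by 0.23 and the higher share of calls from 48.9% to 62.8% (7325 higher, 4348 lower), and turned CDKN1A to 0.21 and CDKN1B to 0.22. Both also turned, uncalled, with median ratio scaling (0.0044 and 0.0168) and quantile normalization (0.0639 and 0.0817), CDKN1A without low glucose replicate 2 (0.0069) or high glucose replicate 4 (0.0192), and CDKN1B without low glucose replicate 2 (0.0153). Leaving out 1 library gave -0.0778 to 0.0192 for CDKN1A and -0.0688 to 0.0153 for CDKN1B. The CDKN1B minus CDKN1A difference turned without low glucose replicate 1 (-0.0315) or high glucose replicate 4 (-0.0473), within a leave-one-out range of -0.0473 to 0.0624. The leave-one-out ranges were 0.23 to 0.37 for CCND3 minus CCND1 and 1.77 to 1.87 for CDK6 minus CDK4. With a pseudocount of 5, CCND3 minus CCND1 was 0.11 (exact p = 0.314), and with 0.1 it was 0.33 (exact p = 0.0571), beside 0.28. The cause of these turns was not tested.

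Replicate numbers did not pair the libraries (correlations of deviations of -0.03, 0.11, 0.01 and 0.08 for numbers 1 to 4, and only numbers 2 and 4 matched best with their own), and a replicate block called 11494 genes in place of 11350 and the same count of 7 G1 genes. Depth limits CDKN2A and CDKN1C, at 1 to 4 and 0 to 12 estimated counts per library.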
